A study of Mus musculus with 6 samples.

Results

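The genes encoding the standard subunits of the proteasome, the complex that degrades ubiquitin-tagged proteins, were examined in mature IDG-SW3 cells with and without parathyroid hormone (PTH). Members were the gene entries named Psma, Psmb, Psmc or Psmd followed by a number, without the 3 interferon-inducible catalytic subunits Psmb8, Psmb9 and Psmb10, and 36 of the 23700 entries in each library met this definition. They comprise 16 genes of the core particle, 17 of the regulatory particle and 3 chaperones that assemble its base. IDG-SW3 is a single mouse cell line from long bones of mice that carried a Dmp1-GFP reporter and a temperature-sensitive T antigen, and with time in culture it acquires osteocyte features. Both groups were expanded under interferon-γ, which induces the T antigen, and were then differentiated without it to day 28, with ascorbic acid (50 µg/ml) and β-glycerophosphate (4 mM) in the medium. The Control group (n = 3 wells) then received PBS and the PTH group (n = 3 wells) received 50 nM bovine PTH (1-34), in each case for 24 hours. Polyadenylated RNA was sequenced as 6 barcoded libraries on 1 lane, and expression is given as FPKM, fragments scaled to transcript length and to the mapped fragments of the library, so that levels of different genes can be compared per length.

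The proteasome consists of a barrel-shaped core and a regulatory particle that caps it. The outer rings of the core are built of alpha subunits and gate the entrance, and the inner rings are built of beta subunits, of which PSMB5, PSMB6 and PSMB7 carry the proteolytic sites. The regulatory particle binds the ubiquitin chain, removes it and feeds the unfolded protein into the core, with a ring of ATPases in its base and a scaffold of further subunits in its lid. In mammalian cells the transcription factor NRF1 (Nfe2l1) raises subunit genes together, through antioxidant response elements (ARE), when proteasome activity is short. In cells of the osteoblast lineage the proteasome is known for turning over RUNX2 and β-catenin.

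The libraries differed in ways that bear on these genes. Outside type I collagen, the fragments implied by the authors' bounds were 13957128 to 19042026 in the Control libraries and 22480054 to 24481295 in the PTH libraries. Every PTH library was thus deeper over these entries, and the collagen fragments of the Control libraries are not known. The summed FPKM outside type I collagen was 431519 to 463721 in Control and 466367 to 481227 in PTH, and both type I collagen genes lacked an estimate in every Control library. Over the 11900 entries tested, the median difference of PTH minus Control was 0.15 on the log2(FPKM + 1) scale, and 50.3% were called higher with PTH and 23.5% lower (limma, adjusted p below 0.05). Scaling the libraries by median-of-ratios factors brought this median to 0.0026 and the shares to 34.1% higher and 34.1% lower, and the calls of the members under that scaling are given beside those on FPKM as deposited. It lowered the difference of each tested member by 0.15 to 0.16. The osteocyte markers Dmp1, Mepe, Phex and Sost were present in Control, and 4 of 4 tested fell, with a summed level over the list of 5 of 1114 to 1186 FPKM in Control and 12.3 to 13.5 FPKM in PTH. Fgf23, also on this list, was under the filter, at 0.0245, 0 and 0 FPKM in Control and 0 in every PTH library. Of 5 osteoblast markers 4 fell (27357 to 27866 against 5286 to 6175 FPKM). Most of this sum was Ibsp (means of 14703 in Control and 1100 FPKM in PTH) and Bglap (11955 and 3870 FPKM). The ratio of means was 0.205 for Sp7 and 0.903 for Runx2, and Alpl, at 0.997, was not called on FPKM as deposited. All 6 adipocyte markers fell (505.8 to 711.5 against 65.8 to 141.4 FPKM). Of 5 chondrocyte markers 1 rose and 2 fell among the 3 tested (29.2 to 33.3 against 15.04 to 15.83 FPKM). Of 6 leukocyte markers both tested, Cd14 and Cd68, rose (2.49 to 2.90 against 6.09 to 7.14 FPKM) while Cd3e was at 0, and the 4 endothelial markers summed to at most 0.127 FPKM, with Cdh5 at 0. The part of these shifts in the results on the proteasome was not tested, and in bulk RNA fewer cells of a type and less RNA per cell cannot be told apart.

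The proteasome subunit genes were higher with PTH almost throughout, by small steps that differed between genes. Of the 36 members 34 passed the filter on low values, and 33 of these rose, none fell and 1, Psmd8, was not called. The background for the rises is the 50.3% of all tested entries called higher. At an unadjusted p below 0.05 in limma, 0 members were lower, and Psmd8 was the 1 member with a negative difference. The median difference of the 34 members was 0.36 on the log2 scale (range -0.05 to 0.67), and 33 of them lay above the median of 0.15 over all tested entries. The ratio of mean FPKM, PTH over Control, had a median of 1.28 and ran from 0.962 to 1.59, so no member changed 2-fold. In 33 members every PTH library lay above every Control library, which held for 53.2% of all tested entries. In 29 members the authors' lower bound in every PTH library also exceeded the upper bound in every Control library, against 30.2% of all tested entries, and the 5 members whose bounds overlapped were Psmb6, Psmb1, Psmb2, Psmd8 and Psmd10. Under median-of-ratios scaling 28 members were called higher, 1 lower (Psmd8) and 5 not called (Psmb6, Psmb1, Psmb2, Psmb4 and Psmc1), with a median difference of 0.19. Under TPM scaling the background was 43.3% higher and 27.0% lower, and under quantile normalization 38.8% higher and 30.5% lower. Both alternatives called the same numbers of members, 33 higher and 1 lower.

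**Figure D1:**
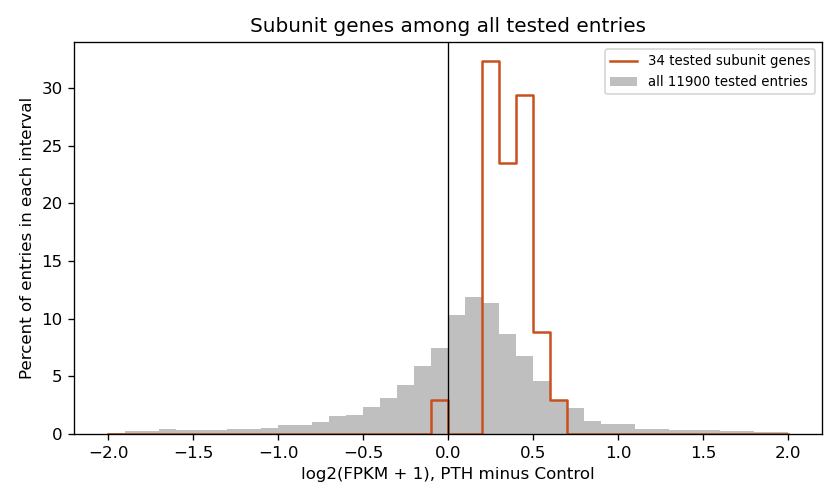
Share of entries (percent, vertical axis) in intervals of the difference in log2(FPKM + 1), PTH minus Control (horizontal axis), for all 11900 tested entries (grey bars) and the 34 tested subunit genes (line). The subunit genes gather around their median of 0.36, with Psmd8 alone below 0, while the quartiles of all entries lie at -0.12 and 0.38, and 359 entries lie outside the axis.

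Summed over the members, the level was 2659, 2420 and 2605 FPKM in Control libraries 1, 2 and 3 and 3300, 3196 and 3375 FPKM in PTH libraries 1, 2 and 3. The groups did not overlap, and the sum rose from 2561 ± 125.6 to 3290 ± 90.2 FPKM (mean ± SD, n = 3), a ratio of 1.28. As a share of all FPKM outside type I collagen the members took 0.573%, 0.561% and 0.572% in Control and 0.702%, 0.685% and 0.701% in PTH. Within the groups, Control 2, the shallowest library outside type I collagen, was the lowest Control library in 27 of the 34 tested members (79.4%) and in 56.8% of all tested entries. PTH 2 was the lowest PTH library in 28 members (82.4%) and in 42.5% of all tested entries. Control 2 and PTH 2 also had the lowest summed FPKM of their groups. The members lie on 16 chromosomes, with at most 6 on any 1 of them (chromosome 11).

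Over the members, core and regulatory particle rose by nearly the same factor. The name rule leaves out Shfm1, a small lid subunit gene, which fell from 571.7 ± 30.6 to 375.5 ± 3.27 FPKM (mean ± SD, n = 3). The other 9 listed particle-bound factors outside the rule rose, 6 of them also under median-of-ratios scaling. The sums and ratios below are without these genes. All 14 tested core genes rose, with a median difference of 0.34 (0.23 to 0.67), and their summed level went from 1427 ± 78.8 to 1825 ± 56.2 FPKM (ratio 1.28). Of the 17 regulatory particle genes 16 rose, with a median of 0.37 (-0.05 to 0.53), and their sum went from 1089 ± 47.1 to 1404 ± 32.8 FPKM (ratio 1.29). Under median-of-ratios scaling 10 of the 14 core genes and 15 of the 17 regulatory particle genes were called higher, with medians of 0.18 and 0.21. The background among all tested entries is 50.3% higher as deposited, 34.1% under median-of-ratios scaling and 53.2% higher without overlap. It also applies to the subgroup counts below. Over the members, the ratio of summed core to summed regulatory particle FPKM was 1.32, 1.29 and 1.32 in Control and 1.30, 1.29 and 1.31 in PTH, so the groups overlapped. This ratio was not computed with Shfm1 added. The fall of Shfm1, from 571.7 to 375.5 FPKM, is large beside the regulatory particle sums of 1089 and 1404 FPKM. The near-equal factors therefore hold for the members only and not for the regulatory particle with Shfm1. Among the tested members, core genes were the more abundant per length, with Control means of 56.5 to 145.3 FPKM (median 104.5) against 34.4 to 95.5 FPKM (median 60.4) for the regulatory particle members.

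**Figure D2:**
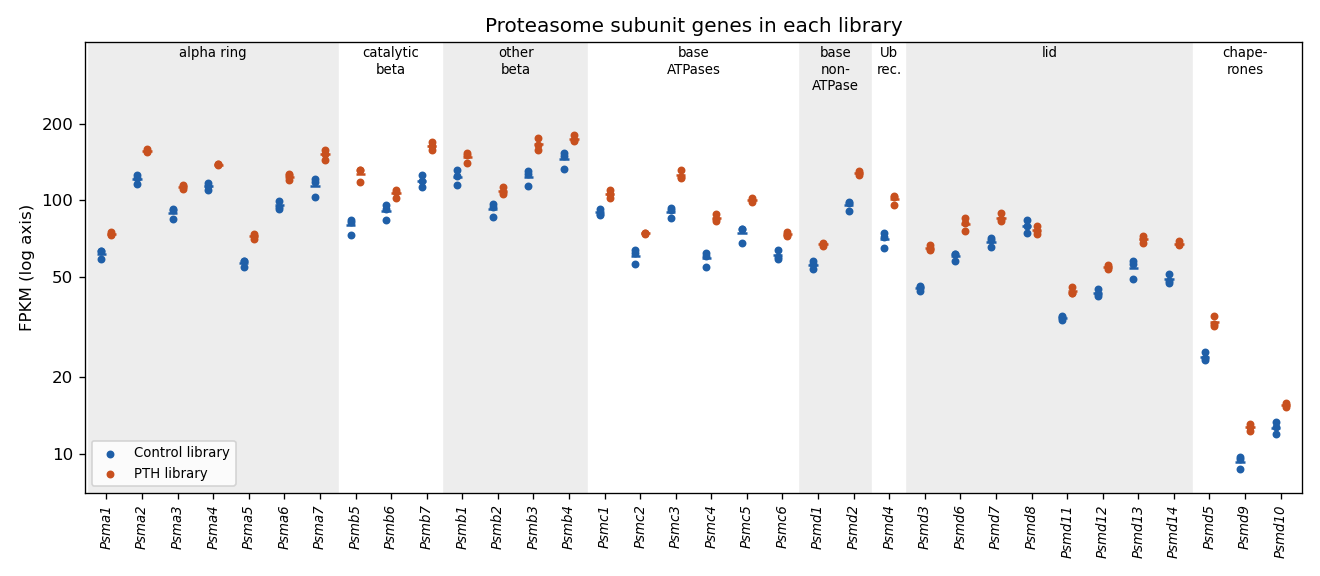
FPKM (log axis) of the 34 tested subunit genes in each of the 3 Control libraries (blue) and 3 PTH libraries (orange), with short bars at the group means and shading by subgroup. The points of the groups separate for 33 genes and overlap for Psmd8, and the 3 chaperones lie lowest, at Control means of 9.29 to 24.1 FPKM.

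The 3 catalytic subunits rose unequally. Psmb5 encodes the chymotrypsin-like site, the main target of the proteasome inhibitor bortezomib, and lies on chromosome 14 at 55232957 to 55236832 (mm9). Its level was 82.4, 72.9 and 83.8 FPKM in Control and 131.2, 118.0 and 131.5 FPKM in PTH. The lowest PTH library lay well above the highest Control library, and the mean rose from 79.7 ± 5.91 to 126.9 ± 7.68 FPKM, a ratio of 1.59 and the largest among the members (log2 difference 0.67 ± 0.07 SE, limma adjusted p = 0.000144). Psmb7, the trypsin-like site, had 125.7, 112.9 and 119.1 FPKM in Control and 163.2, 157.3 and 170.5 FPKM in PTH. It rose from 119.2 ± 6.39 to 163.7 ± 6.63 FPKM, again without overlap (0.45 ± 0.05 SE, adjusted p = 0.000214, limma). Psmb6, the caspase-like site, had 95.7, 83.7 and 92.0 FPKM in Control and 107.4, 102.4 and 109.3 FPKM in PTH. This was the smallest rise of the core (0.23 ± 0.06 SE, limma adjusted p = 0.00793), and it was not called under median-of-ratios scaling (0.07, adjusted p = 0.168). Within each library the ratio of Psmb5 to Psmb6 was 0.861, 0.871 and 0.911 in Control and 1.22, 1.15 and 1.20 in PTH, and that of Psmb7 to Psmb6 was 1.31, 1.35 and 1.29 against 1.52, 1.54 and 1.56. Both ratios lay apart between the groups, so the order of Psmb5 and Psmb6 turned. These ratios were picked for description after the differences were known and carry no test.

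The alpha ring was the most even subgroup. Its 7 genes Psma1 to Psma7 all rose, by 0.26 to 0.41 (median 0.35), and all 7 were also called higher under median-of-ratios scaling. Psma1 rose least, with 63.3, 58.5 and 62.9 FPKM in Control and 73.2, 73.3 and 74.8 FPKM in PTH. Psma7 rose most, with 121.1, 103.4 and 118.1 FPKM in Control and 151.6, 144.8 and 158.4 FPKM in PTH. Psma2, Psma3, Psma4, Psma5 and Psma6 lay between them, at ratios of 1.22 to 1.30. Groups did not overlap for any of the 7, and the Control means ran from 56.5 FPKM for Psma5 to 121.6 FPKM for Psma2.

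The 4 beta subunits without a proteolytic site also rose, by 0.23 to 0.42 (median 0.26). Psmb2 had 94.3, 86.1 and 96.6 FPKM in Control and 107.7, 105.4 and 113.1 FPKM in PTH, a difference of 0.23 ± 0.05 SE (limma adjusted p = 0.00573). Psmb3 had 127.1, 113.7 and 130.4 FPKM in Control and 164.8, 157.6 and 176.0 FPKM in PTH, a difference of 0.42 ± 0.06 SE (limma adjusted p = 0.000998). Psmb3 stood apart from the others of this subgroup, since Psmb1 (0.26), Psmb2 and Psmb4 (0.27) were not called under median-of-ratios scaling, with adjusted p values of 0.0908, 0.139 and 0.0762 in limma. The difference between Psmb3 and these genes was not tested.

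Both tissue-restricted alpha and beta genes were outside the test. Psma8, which replaces an alpha subunit in testis, was listed at 0 in all 6 libraries. Psmb11, the thymus-specific beta subunit, had 0.219, 0.207 and 0.191 FPKM in Control and 0.237, 0.225 and 0.216 FPKM in PTH, values that overlapped between the groups and fell under the filter of 1 FPKM.

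In the base of the regulatory particle all 6 ATPases rose, with a median of 0.36. Psmc4 rose most, with 62.2, 54.7 and 60.1 FPKM in Control and 84.7, 82.8 and 88.7 FPKM in PTH (ratio 1.45, log2 difference 0.53 ± 0.05 SE, limma adjusted p = 0.000149). Psmc1 rose least, with 92.7, 87.7 and 88.2 FPKM in Control and 105.5, 102.0 and 110.3 FPKM in PTH (0.24 ± 0.04 SE, limma adjusted p = 0.00162). Psmc1 was the 1 ATPase gene not called under median-of-ratios scaling (adjusted p = 0.0805, limma). The other ATPase genes formed a lower pair of Psmc2 (0.29) and Psmc6 (0.27) and a higher pair of Psmc3 (0.48) and Psmc5 (0.43). The large scaffold subunits of the base also rose. Psmd1 had 57.3, 53.7 and 56.0 FPKM in Control and 66.9, 66.1 and 68.1 FPKM in PTH (0.26 ± 0.03 SE). Psmd2 had 97.4, 90.5 and 98.6 FPKM in Control and 128.6, 125.5 and 130.4 FPKM in PTH (0.42 ± 0.04 SE). Psmd4, the ubiquitin receptor that sits between base and lid, had 71.4, 64.8 and 74.2 FPKM in Control and 103.1, 95.7 and 104.2 FPKM in PTH. It rose by 0.52 ± 0.06 SE (limma adjusted p = 0.000244), with no overlap between the groups.

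The lid held both the strongest called rise by p value and the 1 member that was not called. Psmd3, a scaffold subunit, had 45.9, 43.7 and 45.7 FPKM in Control and 63.7, 64.2 and 66.7 FPKM in PTH (0.52 ± 0.03 SE, limma adjusted p = 1.7e-05). Psmd14, the deubiquitinase that cuts the chain from the substrate, had 51.3, 48.2 and 47.1 FPKM in Control and 68.8, 67.0 and 66.4 FPKM in PTH (0.46 ± 0.04 SE, limma adjusted p = 6.3e-05). Psmd6, Psmd7, Psmd11, Psmd12 and Psmd13 rose by 0.31 to 0.42. Psmd8, a lid subunit on chromosome 7 at 29959206 to 29965692 (mm9), had 83.6, 74.4 and 79.2 FPKM in Control and 75.4, 73.5 and 79.2 FPKM in PTH. Its groups overlapped, and the mean was 79.1 ± 4.62 FPKM in Control and 76.0 ± 2.91 FPKM in PTH (-0.05 ± 0.05 SE, limma adjusted p = 0.363). With the libraries rescaled Psmd8 was called lower, at -0.12 under TPM (adjusted p = 0.0078), -0.22 under median-of-ratios (adjusted p = 0.00224) and -0.20 under quantile scaling (adjusted p = 0.000907, all limma). Among the 8 lid members Psmd8 was the most abundant per length in Control, at 1.60, 1.53 and 1.55 times the mean of the other 7, and in PTH it was at 1.12, 1.13 and 1.17 times. The other 7 rose while Psmd8 was not called, and this ratio, picked after the differences were known, carries no test.

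The 3 base assembly chaperones, which leave the finished particle, also rose. Psmd5 rose most, with 23.7, 25.1 and 23.4 FPKM in Control and 34.9, 31.8 and 32.4 FPKM in PTH (0.44 ± 0.05 SE). Psmd10, known as gankyrin, rose least, with 13.3, 12.7 and 11.9 FPKM in Control and 15.6, 15.2 and 15.8 FPKM in PTH (0.28 ± 0.04 SE). Psmd9 lay between them, at 9.29 ± 0.516 FPKM in Control and 12.7 ± 0.389 FPKM in PTH (0.41 ± 0.05 SE). All 3 passed at adjusted p of at most 0.00105 in limma and were also called higher under median-of-ratios scaling.

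**Figure D3:**
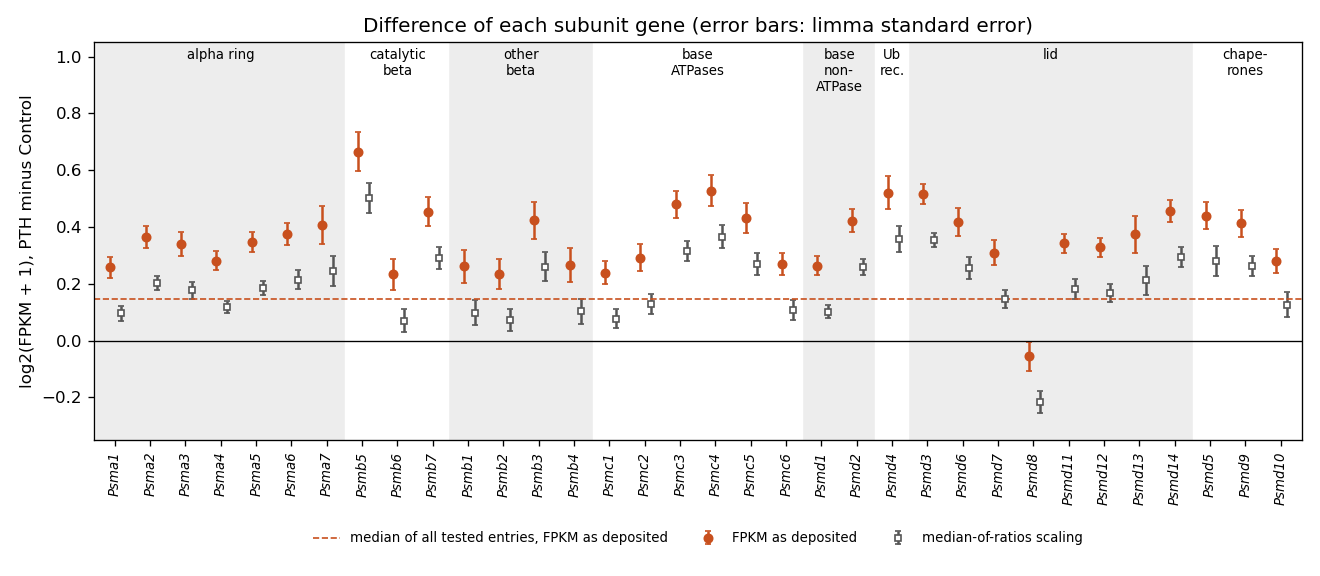
Difference in log2(FPKM + 1), PTH minus Control, for each of the 34 tested subunit genes on FPKM as deposited (filled circles) and after median-of-ratios scaling (open squares), with limma standard errors as bars and the median of all tested entries, 0.15, as the dashed line. Psmb5 is highest at 0.67 and Psmd8 lowest at -0.05, and the squares lie lower than the circles for every gene.

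Windows of 250 bases upstream of the RefSeq gene start (GRCm38.p6, read in the direction of the gene) are shown for the core gene that rose most, Psmb5 (chr14:54617996-54618245, minus strand), for the regulatory particle gene that rose most, Psmc4 (chr7:28050093-28050342, minus strand), and for Psmd8 (chr7:29180674-29180923, minus strand), the gene that was not called. Capitals mark a match to the ARE core.
Psmb5: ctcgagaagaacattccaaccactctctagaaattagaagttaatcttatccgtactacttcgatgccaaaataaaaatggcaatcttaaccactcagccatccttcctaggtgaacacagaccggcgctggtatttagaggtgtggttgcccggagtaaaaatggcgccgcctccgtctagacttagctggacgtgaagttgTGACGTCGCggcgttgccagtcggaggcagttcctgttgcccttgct
Psmc4: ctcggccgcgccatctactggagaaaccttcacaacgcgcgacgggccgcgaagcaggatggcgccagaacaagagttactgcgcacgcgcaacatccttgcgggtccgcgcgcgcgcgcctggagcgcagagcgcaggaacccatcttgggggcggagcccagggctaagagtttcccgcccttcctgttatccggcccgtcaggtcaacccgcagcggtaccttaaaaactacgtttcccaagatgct
Psmd8: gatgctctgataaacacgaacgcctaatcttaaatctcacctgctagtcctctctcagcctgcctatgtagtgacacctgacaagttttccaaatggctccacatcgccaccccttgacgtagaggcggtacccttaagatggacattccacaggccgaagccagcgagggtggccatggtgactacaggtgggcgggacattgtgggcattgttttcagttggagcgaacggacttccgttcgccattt

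RefSeq windows, without those on the chromosome of Psma8, were used for 29 of the 36 members, and 3 motifs were searched on both strands. The ARE core, TGACNNNGC, which NRF1 and NRF2 recognize, was present in 5 of the 29 (17.2%), namely Psmb5, Psmb6, Psmc6, Psmd12 and Psmd9, against 11.5% of 27025 genes with a window. In Psmb5 its first base lay at position -47 from the start. The members with this match included both the largest rise (Psmb5) and the smallest rise of the core (Psmb6). The CCAAT box, CCAAT, was present in 12 of the 29 (41.4%), against 37.5% of genes. The cAMP response element TGACGTCA, the palindrome bound by CREB, was present in 0 of the 29, against 1.77% of genes. With so small a share over all genes, 0 of 29 carries little information. Only the full palindrome was searched, and partial forms of it were not. Psmc4 and Psmd8 held none of the 3 motifs in this window. A match describes the letters of the window and was not related to binding here.

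The inducible subunits replace PSMB5, PSMB6 and PSMB7 in the immunoproteasome, and each standard gene lay far above its inducible counterpart in both groups. Psmb8, the counterpart of Psmb5, rose with it, from 14.1, 14.9 and 14.8 FPKM in Control to 19.9, 20.9 and 21.2 FPKM in PTH (0.47 ± 0.04 SE, limma adjusted p = 4.41e-05). Psmb10, the counterpart of Psmb7, fell from 13.7, 12.4 and 12.8 FPKM to 11.3, 10.6 and 10.8 FPKM (-0.23 ± 0.05 SE, limma adjusted p = 0.00387, and -0.38 under median-of-ratios scaling). Psmb9, the counterpart of Psmb6, had 11.2, 11.6 and 13.2 FPKM in Control and 12.0, 10.2 and 8.87 FPKM in PTH, which overlapped (-0.21 ± 0.11 SE, limma adjusted p = 0.123), and it was called lower without PTH replicate 1 (-0.31, adjusted p = 0.0243). Within libraries the ratio of Psmb10 to Psmb7 went from 0.109 ± 0.00135 to 0.0667 ± 0.00323 and that of Psmb9 to Psmb6 from 0.133 ± 0.0141 to 0.0974 ± 0.0154 (mean ± SD, n = 3), without overlap in either. The ratio of Psmb8 to Psmb5 was 0.184 ± 0.0180 in Control and 0.163 ± 0.0125 in PTH, and these values overlapped. Two-sided exact permutation tests of the 3 ratios gave p = 0.1, 0.1 and 0.2 (adjusted over the 3 ratios, 0.15, 0.15 and 0.2), and 0.1 is the smallest p that 3 against 3 libraries allow.

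**Figure D4:**
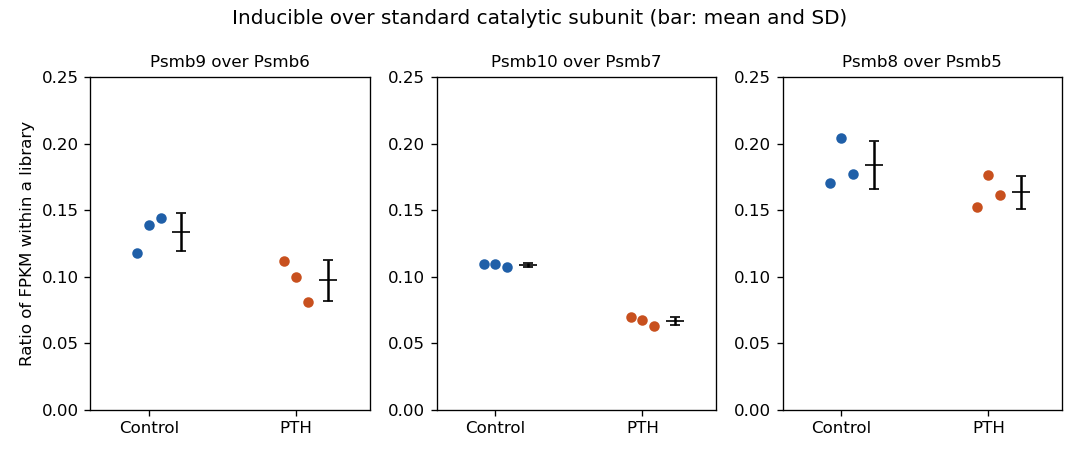
Ratio of FPKM of an inducible to its standard catalytic subunit within each library (vertical axis, from 0), for Control (blue) and PTH (orange), with bars for the mean and SD (n = 3). The ratios of Psmb9 to Psmb6 and of Psmb10 to Psmb7 are lower in every PTH library than in every Control library, whereas those of Psmb8 to Psmb5 overlap.

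Among 36 other genes of the pathway found in the tables (38 listed), 28 rose, 4 fell and 4 were not called, with a median difference of 0.27. The background is 50.3% higher and 23.5% lower among all tested entries, and it also applies to the counts by role below. Under median-of-ratios scaling 18 were higher, 6 lower and 12 not called, against 34.1% higher and 34.1% lower among all tested entries. All 5 further assembly factors rose (median 0.49), led by the core chaperones Psmg3 (10.5 ± 0.636 to 16.7 ± 0.906 FPKM, ratio 1.59), Psmg2 (ratio 1.53) and Psmg4 (ratio 1.42). Under median-of-ratios scaling 4 of these 5 were called higher. Pomp, the most abundant per length of the 5, was not (0.19 as deposited, 0.03 rescaled, limma adjusted p = 0.513). Of 10 factors bound to the particle 9 rose (6 under median-of-ratios scaling), with Usp14, a deubiquitinase of the regulatory particle, at a ratio of 1.49. The exception was Shfm1, the older symbol of the small lid subunit gene Sem1, which had 582.0, 537.2 and 595.8 FPKM in Control and 377.6, 377.1 and 371.7 FPKM in PTH. It fell by 0.60 on the log2 scale (SE 0.05, limma adjusted p = 3.62e-05) and in Control lay above all 8 lid members, Psmd8 included. Of 5 alternative caps and inhibitors 4 rose (2 under median-of-ratios scaling). Psme4, the PA200 cap, fell from 25.6 ± 0.431 to 21.5 ± 0.374 FPKM (-0.24, and -0.40 under median-of-ratios scaling). The ubiquitin gene Ubb rose from 577.4 ± 52.2 to 888.2 ± 33.3 FPKM (0.62), while Rps27a was not called (0.05, limma adjusted p = 0.44). Rps27a was called lower under median-of-ratios scaling (-0.11, adjusted p = 0.0458) and quantile normalization (-0.06, adjusted p = 0.0273, both limma). All 4 genes of the VCP unfolding complex rose on FPKM as deposited, with a median difference of 0.21 against 0.15 over all tested entries. Of these 4 genes 1 was called higher under median-of-ratios scaling.

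Of the factors that act on subunit gene transcription, Nfe2l1, encoding NRF1, had 65.9, 64.3 and 65.1 FPKM in Control and 77.9, 76.1 and 76.8 FPKM in PTH (0.24 ± 0.03 SE, limma adjusted p = 0.000227), at 0.07 under median-of-ratios scaling (adjusted p = 0.0231), and it was not called under quantile normalization (0.07, adjusted p = 0.0584). The NRF1 protease gene Ddi2 and the deglycosylase gene Ngly1 were not called. Nfe2l2, encoding the related factor NRF2, changed more than any other listed gene, from 49.6, 48.3 and 47.0 FPKM in Control to 109.3, 104.7 and 107.3 FPKM in PTH. This is a ratio of 2.22 (1.13 ± 0.03 SE, limma adjusted p = 4.35e-07). Keap1, whose product directs NRF2 to the proteasome, had 20.3, 17.7 and 18.6 FPKM in Control and 16.5, 16.9 and 17.6 FPKM in PTH (-0.14 ± 0.05 SE, limma adjusted p = 0.0498), a call that was lost without each library except Control 2, with adjusted p of 0.0588 to 0.145. It was also lost with the replicate block (adjusted p = 0.0781), without the filter (0.0744) and without the variance trend (0.0585), and was kept under TPM, median-of-ratios (-0.30) and quantile scaling.

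**Figure D5:**
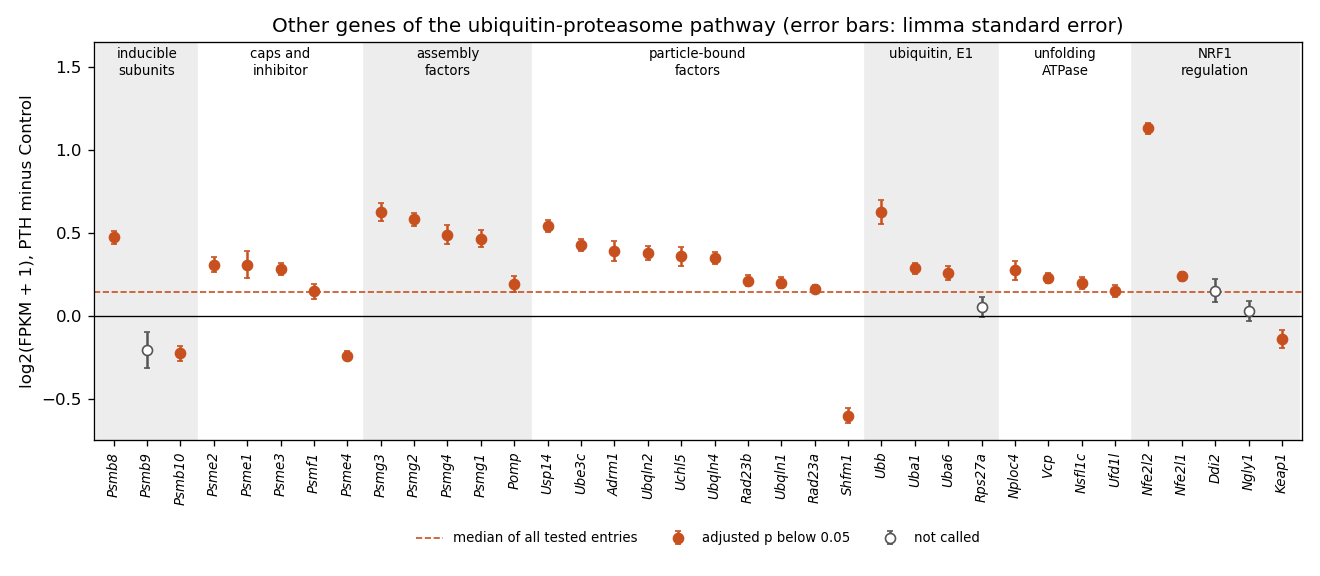
Difference in log2(FPKM + 1), PTH minus Control, for the 36 other genes of the ubiquitin-proteasome pathway by role, with limma standard errors as bars, filled circles for adjusted p below 0.05 and open circles for genes not called. Nfe2l2 is highest at 1.13 and Shfm1 lowest at -0.60, and the dashed line is the median of all tested entries, 0.15.

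Some of these estimates share reads with other features. Psmd1 overlaps Htr2b over 12934 bases, Psma3 overlaps 3110056K07Rik over 3309 bases, Psmb5 overlaps the microRNA gene Mir686 over 109 bases and Psma4 overlaps AY074887 over 96 bases. The library kit does not mark strand, so reads in the shared bases cannot be assigned with certainty. The entry of Mir686 had 207.6 FPKM in Control and 311.4 FPKM in PTH on average, and its part in the value of Psmb5 was not tested, while Htr2b stayed at or below 0.982 FPKM on average. RefSeq names 6 pseudogenes of Psma5, Psmb5, Psmb6 and Psmb7, and 0 of these were entries in the tables, so the levels of these 4 members are uncertain to the extent that reads from the copies were counted with them. The authors' bounds lay 1.92% to 15.1% of the FPKM on either side of it for the 34 tested members, which covers estimation error within a library only.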

How the data were processed

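RNA from 3 Control and 3 PTH wells was made into libraries with a poly-A kit that does not mark strand (TruSeq RNA v2). The authors deposited 1 table per library with the FPKM of each gene and its lower and upper bound. The submitters' processing notes name CASAVA 1.8, TopHat with Bowtie2, SAMtools and Cuffdiff, with mm9 as the build. Other versions, the annotation and any strand setting of the counting were not given in the sources used here. The authors' Cuffdiff comparison, which holds group FPKM, log2 ratios, p-values and q-values, was not used.

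limma 3.58.1 (R 4.3.3) was fitted with a variance trend to log2(FPKM + 1), a scale that understates the change of low genes, for the 11900 entries with a mean of at least 1 FPKM. A call is an adjusted p below 0.05, by the Benjamini-Hochberg method across every tested entry. Col1a1 and Col1a2, without an estimate in Control (status HIDATA), entered no test. The labels do not say that wells came from separate cultures, and the p-values reflect well-to-well variation alone, possibly of technical origin. Each of the authors' bounds was read as lying 2 standard errors from the FPKM, from which the number of fragments behind a value was implied. Starts were taken to be 0-based: the span from start to end matched the gene length in RefSeq for 8901 of 20985 symbols, and for 549 with 1 base added.

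The members and gene lists were chosen with earlier results of these data known. Values in every library are given for the catalytic subunits, Psmd14, Psmd4, the largest and smallest difference of each subgroup, and every member not called or under the filter. Of the other pathway genes, those named are the 8 called with the largest absolute difference, every called fall, Psmb8, Psmb9, Psmb10, Nfe2l1 and Nfe2l2. In addition the genes not called are named. Some genes of the pathway are not reported here. The alternatives, 14 in all, changed the pseudocount, the filter, the scaling and the variance trend, added a replicate block or left out 1 library. Promoter windows came from RefSeq (GRCm38.p6), since the mm9 genome was not used here. Member windows on chromosome 18, where Psma8 lies, were left out of the search, and no such filter was applied to the shares over all genes.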

Additional observations from a re-analysis of the deposited data

How the results depend on the processing

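Of the members, 33 were called higher under every alternative but median-of-ratios scaling (28), and leaving out 1 library at a time kept this count at 33, with a median difference of 0.33 to 0.38. The count of members called lower was 0 on FPKM as deposited and 1 under TPM scaling, 1 under median-of-ratios scaling and 1 under quantile normalization, in each case the regulatory particle gene Psmd8. Without 1 library, 5487 to 5833 of all tested entries were higher and 2600 to 2796 lower. A filter at a mean of 5 FPKM left 8705 entries, of which 4773 were higher and 1985 lower. Of the checks on single genes 638 kept their call, 14 lost it and 6 gained it, and none changed sign past the threshold. Psmb9 was called lower under median-of-ratios (-0.36, adjusted p = 0.0221, limma) and quantile scaling (-0.34, adjusted p = 0.03). Deviations of libraries with the same replicate number correlated at -0.08, 0.00 and -0.04 over entries, and no Control library correlated best with the PTH library of its number, so the numbers were not taken as pairs. With the replicate block 33 members were higher and 0 lower, and 5869 of all entries were higher and 2731 lower.

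With 3 wells a group, the scale of the libraries decides the calls of Psmb1, Psmb2, Psmb4, Psmb6, Psmc1 and Psmd8. Depth outside type I collagen was lower in every Control library, which also lacked the collagen estimates, and these differences cannot be told apart from the treatment. The deposited values allow no count model.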
